A study of Mus musculus with 16 samples.

Results

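Costimulatory receptors give a T cell the additional signals that decide how far it responds once its antigen receptor (TCR) is engaged. The 10 receptors described here were the rows of the count table named *Cd28*, *Icos*, *Cd27*, *Tnfrsf4*, *Tnfrsf9*, *Tnfrsf18*, *Tnfrsf1b*, *Tnfrsf25*, *Cd226* and *Cd2*, that is 10 of 55450 genes, chosen by name. The choice was made with earlier results of these data known, so their counts beside the share of all genes are descriptions. All 10 passed the filter on low counts in every comparison. CD28 and ICOS belong to the CD28 family, bind B7 proteins and ICOS ligand on antigen-presenting cells and recruit PI3K. CD27, OX40 (*Tnfrsf4*), 4-1BB (*Tnfrsf9*), GITR (*Tnfrsf18*), TNFR2 (*Tnfrsf1b*) and DR3 (*Tnfrsf25*) belong to the TNF receptor superfamily and signal through TRAF adaptors to NF-κB. DNAM-1 (*Cd226*) and CD2 are immunoglobulin superfamily adhesion receptors and belong to neither family.

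RNA was measured in CD4+ and CD8+ tumor-infiltrating lymphocytes (TILs) from subcutaneous tumors of B16F10, a melanoma line of C57BL/6 mice. WT hosts (C57BL/6J) and *Sirt2*-/- hosts (B6.129-Sirt2tm1.1Fwa/J), which lack the deacetylase SIRT2 in the germline and so in every host cell but not in the B16F10 cells, were each sampled with 4 CD4+ and 4 CD8+ libraries, which makes 16. The study's methods give an age of 7 to 8 weeks for its mice, and purification of TILs by a density gradient and CD3ε beads. How CD4+ and CD8+ cells were then separated, and whether libraries of the same number came from 1 animal, is not given in the sources used here.

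Total counts on genes ranged from 28000949 to 62407851 per library. *Sirt2* itself was lower in every *Sirt2*-/- library, with 8.29 ± 1.64 against 37.9 ± 7.22 CPM (TMM-normalized counts scaled to a common library size, mean ± SD, n = 4) in CD8+ TILs and 8.35 ± 5.64 against 50.5 ± 15.4 CPM in CD4+ TILs. The lineage genes separated the cell types, with *Cd4* at 383 to 622 CPM in CD4+ libraries and 0 to 4.93 CPM in CD8+ libraries. In 3 libraries fewer than 15000 genes had a count: *Sirt2*-/- CD4+ replicate 4 with 8169 genes, WT CD4+ replicate 1 with 12587 and WT CD8+ replicate 1 with 14411, against 17730 to 22138 in the other 13. Results that rest on these 3 libraries are given with and without them. *Sirt2*-/- CD4+ replicate 4 was also the library with 0 CPM of *Sirt2*. The *Sirt2* difference in CD4+ TILs had an unadjusted edgeR p of 0.065. In bulk RNA, fewer cells of a type and less RNA per cell cannot be told apart.

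Of the 10 genes, 5 lie on chromosome 4 (GRCm38): *Tnfrsf1b*, *Tnfrsf9*, *Tnfrsf25*, *Tnfrsf4* and *Tnfrsf18*. *Tnfrsf4* (chr4:156013843-156016612) and *Tnfrsf18* (chr4:156026164-156028895), both on the plus strand, are 9.6 kb apart, and *Cd28* and *Icos* are 204.6 kb apart on chromosome 1. Exons of *Tnfrsf18* overlap the antisense gene *Gm16008*, and those of *Cd27* overlap the microRNA gene *Mir8113* on the same strand. Since the strand setting of the counting is not given in the sources used here, reads of *Tnfrsf18* and *Gm16008* may not have been told apart. Strand cannot tell apart reads of *Cd27* and *Mir8113*.

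RefSeq start sites gave promoter windows, from 250 bases before to 50 bases after the start, for 6 of the 10 receptors (GRCm38.p6). Those of *Tnfrsf4*, *Tnfrsf18* and *Tnfrsf9* are shown because these receptors were high in the same groups. The stretch outside the gene's own GENCODE exons is printed 5′ to 3′ on the plus strand, from chr4:156013445-156013744, chr4:156026072-156026163 and chr4:150919905-150920154, and capitals mark GGAAA on either strand, the core bound by NFAT factors.

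Tnfrsf4: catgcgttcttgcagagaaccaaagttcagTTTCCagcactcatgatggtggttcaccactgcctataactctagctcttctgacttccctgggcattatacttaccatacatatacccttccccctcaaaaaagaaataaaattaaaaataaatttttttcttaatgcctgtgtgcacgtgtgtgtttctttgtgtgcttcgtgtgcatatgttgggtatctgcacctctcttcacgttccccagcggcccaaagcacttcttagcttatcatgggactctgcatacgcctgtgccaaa
Tnfrsf18: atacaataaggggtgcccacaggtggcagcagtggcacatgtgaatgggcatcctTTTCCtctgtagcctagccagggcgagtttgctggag
Tnfrsf9 first start: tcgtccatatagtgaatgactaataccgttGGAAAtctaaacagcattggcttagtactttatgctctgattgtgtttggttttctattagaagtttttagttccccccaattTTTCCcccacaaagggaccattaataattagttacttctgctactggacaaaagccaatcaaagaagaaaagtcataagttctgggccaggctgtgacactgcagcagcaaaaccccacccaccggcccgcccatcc

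GGAAA is a short motif, and 61.3% of 32817 promoter windows of this length held it. Over the full windows it was found once in that of *Tnfrsf4* and at 2 places in those of *Tnfrsf18* and of the first start of *Tnfrsf9*. None of these windows held the κB consensus (8.46% of all windows), the AP-1 motif TGANTCA (7.81%) or the RUNX motif TGTGGT (16.8%). At a second *Tnfrsf9* start, further downstream, the window held 3 overlapping κB matches from base −43 relative to the start. It also held 3 GGAAA matches, 1 of them inside the κB matches, an AP-1 match at −15 and a RUNX match at 11. Both *Tnfrsf9* windows lie wholly within the GENCODE gene, which begins upstream of them at chr4:150914562. Of the other windows, that of a second *Tnfrsf25* start held 2 κB matches. The κB matches are printed in capitals with their flanks (chr4:150927947-150927976), a stretch that lies in a GENCODE exon of *Tnfrsf9*.

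Tnfrsf9 second start: agagcagctGGGGATTTCCCaggaggccct

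The receptors spanned a wide range of levels. Per kilobase of exon, *Cd2* was the highest of the 10 in all 4 groups, at 327 ± 47.1 CPM per kb in WT CD4+ TILs and 163 ± 10.5 CPM per kb in WT CD8+ TILs (n = 4). *Tnfrsf25* was the lowest in all 4 groups, at 13.2 ± 6.25 and 2.51 ± 1.54 CPM per kb. The order between them differed between cell types. In WT CD4+ TILs *Tnfrsf18* (212 ± 17.6 CPM per kb), *Tnfrsf4* (194 ± 39.6), *Tnfrsf9* (130 ± 32.3) and *Icos* (103 ± 15.5) followed *Cd2*, and the same genes held ranks 2 to 5 in *Sirt2*-/- CD4+ TILs. In WT CD8+ TILs *Tnfrsf1b* (48.8 ± 4.99 CPM per kb) was second, and *Tnfrsf4* (6.81 ± 1.49) was at rank 9. Neighbors in these orders often lay within 1 SD of each other, as *Tnfrsf18* and *Tnfrsf4* did in WT CD4+ TILs, and *Cd28* and *Icos* in WT CD8+ TILs.

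CD28, the receptor for CD80 and CD86, was carried at a higher RNA level by CD4+ TILs. *Cd28* measured 131, 244, 221 and 195 CPM in the 4 WT CD4+ libraries and 225, 233, 217 and 37.7 CPM in the *Sirt2*-/- CD4+ libraries, in the order of replicates 1 to 4. In CD8+ TILs it measured 84.8, 84.8, 85.6 and 79.4 CPM (WT) and 78.4, 53.2, 75.3 and 88.7 CPM (*Sirt2*-/-). All CD4+ libraries lay above all CD8+ libraries except *Sirt2*-/- CD4+ replicate 4, a library with few genes, which was the lowest of all 16.

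ICOS is induced by activation and is abundant on follicular helper and regulatory T (Treg) cells. *Icos* was at 350, 410.5, 371 and 284 CPM in WT CD4+ and 244, 472, 467 and 158 CPM in *Sirt2*-/- CD4+ libraries. CD8+ libraries held 38.4, 42.2, 50.8 and 42.0 CPM (WT) and 48.0, 55.7, 59.5 and 71.9 CPM (*Sirt2*-/-). Every CD4+ library exceeded every CD8+ library, and among CD8+ TILs 3 of 4 *Sirt2*-/- libraries exceeded all WT libraries.

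OX40 and GITR are constitutive on mouse Treg cells and inducible on other T cells. *Tnfrsf4* was at 328, 258, 275 and 196 CPM in WT CD4+ and 149, 309.7, 329 and 281 CPM in *Sirt2*-/- CD4+ libraries, against 12.3, 7.97, 8.30 and 8.57 CPM in WT CD8+ and 12.0, 18.5, 19.1 and 21.2 CPM in *Sirt2*-/- CD8+ libraries. For *Tnfrsf18* the CD4+ values were 356, 319, 328 and 292 CPM (WT) and 191, 377, 348 and 404 CPM (*Sirt2*-/-), and the CD8+ values 58.1, 65.2, 64.0 and 79.3 CPM (WT) and 75.2, 98.1, 75.5 and 93.5 CPM (*Sirt2*-/-). The cell types did not overlap for either gene. *Sirt2*-/- CD4+ replicate 1 was the lowest CD4+ library for both genes. Among CD8+ libraries, 3 of 4 *Sirt2*-/- libraries exceeded all WT libraries for *Tnfrsf4* and 2 of 4 for *Tnfrsf18*.

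4-1BB is induced by TCR signaling and marks recently stimulated T cells. *Tnfrsf9* measured 249, 398, 449 and 321 CPM in WT CD4+ and 215, 726, 570.5 and 600.3 CPM in *Sirt2*-/- CD4+ libraries. CD8+ values were 75.7, 92.8, 114 and 120 CPM (WT) and 94.9, 159, 179 and 205 CPM (*Sirt2*-/-). CD4+ libraries were again all above CD8+ libraries, and replicate 1 was the lowest of the 4 in every group.

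CD27, the receptor for CD70, is kept by naive and memory T cells. *Cd27* was at 97.4, 96.9, 89.9 and 47.3 CPM in WT CD4+ and 96.8, 76.7, 92.6 and 243 CPM in *Sirt2*-/- CD4+ libraries, and at 88.6, 63.4, 65.8 and 72.7 CPM in WT CD8+ and 72.0, 62.5, 79.2 and 60.9 CPM in *Sirt2*-/- CD8+ libraries. The 4 groups overlapped apart from *Sirt2*-/- CD4+ replicate 4, which was the highest of the 16 libraries.

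TNFR2, a receptor for TNF, and DR3, the receptor for TL1A, complete the TNF receptor members. *Tnfrsf1b* measured 332, 429, 360 and 314 CPM (WT CD4+), 244, 310.1, 384 and 93.4 CPM (*Sirt2*-/- CD4+), 161, 202, 182 and 200.3 CPM (WT CD8+) and 183, 173, 223 and 168 CPM (*Sirt2*-/- CD8+). Cell types were separate for *Tnfrsf1b* in WT mice, and in *Sirt2*-/- mice they overlapped only through CD4+ replicate 4. *Tnfrsf25* was low throughout, at 50, 17.2, 23.5 and 29.8 CPM (WT CD4+), 31.3, 24.5, 19.7 and 0 CPM (*Sirt2*-/- CD4+), 10.3, 2.67, 3.31 and 6.55 CPM (WT CD8+) and 9.61, 8.12, 3.11 and 3.54 CPM (*Sirt2*-/- CD8+). The 0 in *Sirt2*-/- CD4+ replicate 4 allows a level of up to 0.0536 CPM (3 counts, counting error only).

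DNAM-1 binds CD155 and CD112 and competes for them with the inhibitory receptor TIGIT, and CD2 binds CD48 on other cells. *Cd226* was the 1 member with higher means in CD8+ TILs, at 94.3, 126, 131 and 128 CPM (WT) and 117, 98.5, 149 and 125 CPM (*Sirt2*-/-), against 107, 103, 80.3 and 55.5 CPM (WT) and 58.7, 73.2, 92.2 and 95.9 CPM (*Sirt2*-/-) in CD4+ TILs. The cell types overlapped in WT mice and were separate in *Sirt2*-/- mice. *Cd2* measured 573, 641, 613 and 454 CPM (WT CD4+), 458, 679, 672 and 1228 CPM (*Sirt2*-/- CD4+), 301, 271, 264 and 296 CPM (WT CD8+) and 280.2, 296, 269 and 269 CPM (*Sirt2*-/- CD8+). All CD4+ libraries exceeded all CD8+ libraries for *Cd2*, and *Sirt2*-/- CD4+ replicate 4 stood above the other 15.

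**Figure D1:**
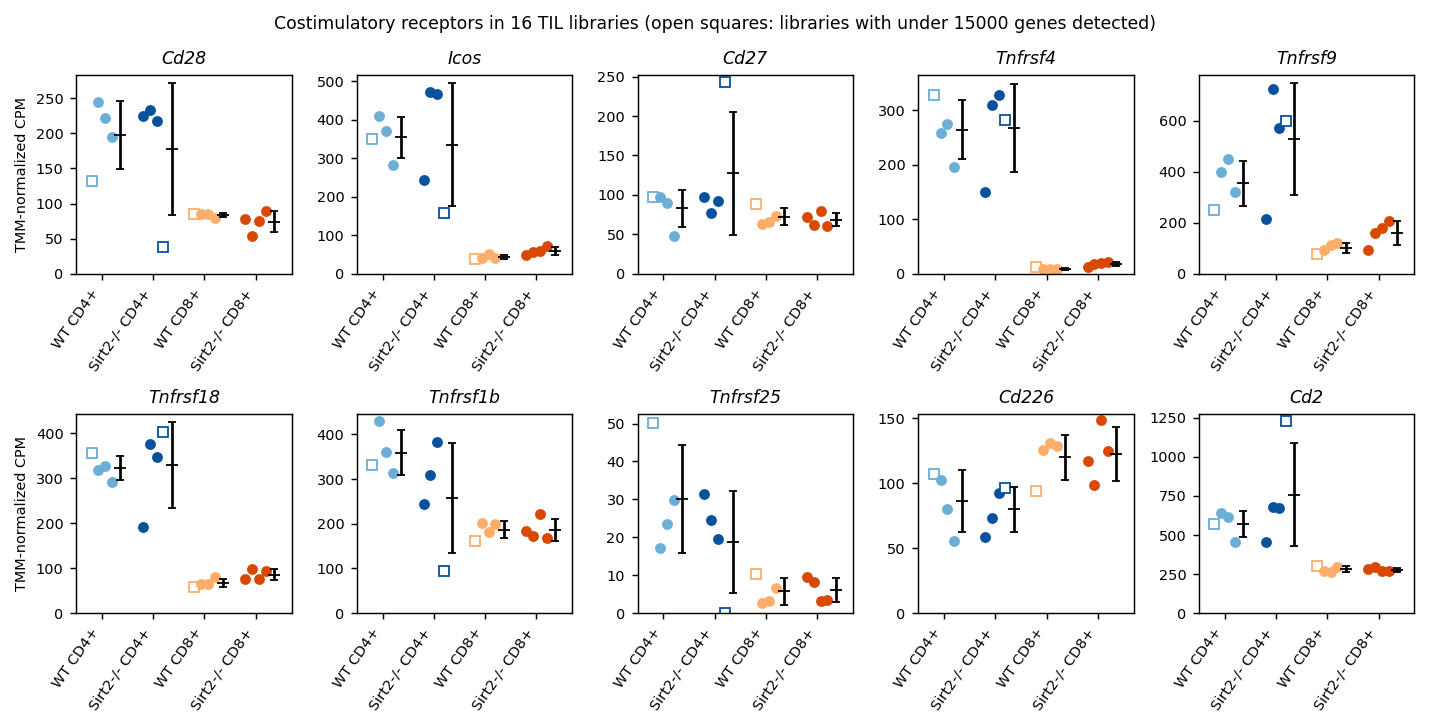
TMM-normalized CPM (linear axis from 0) of each receptor in the 4 groups, 1 point per library with the group mean ± SD beside it (n = 4) and open squares for the 3 libraries with under 15000 genes detected. *Tnfrsf4*, *Icos*, *Tnfrsf18* and *Tnfrsf9* are higher in every CD4+ library than in any CD8+ library, and *Cd226* has its higher means in CD8+ TILs.

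To ask which receptors distinguish the lineages in the tumor, CD8+ and CD4+ TILs of WT mice were compared by edgeR's quasi-likelihood test over all 14892 genes tested. CD8+ TILs had less RNA for 8 of the 10 receptors, led by OX40 and ICOS, whereas 6.96% of all genes tested were called lower (11.9% in either direction) at an adjusted p below 0.05. *Tnfrsf4* was 29.5-fold lower (log2 fold change −4.88 ± 0.23, ± SE, edgeR adjusted p = 1.1e-06) and *Icos* 8.51-fold lower (−3.09 ± 0.16, edgeR adjusted p = 1.5e-06). The other TNF receptors that fell were *Tnfrsf25* (−2.44 ± 0.49, adjusted p = 0.0083), *Tnfrsf18* (−2.34 ± 0.13, adjusted p = 2.3e-06), *Tnfrsf9* (−1.88 ± 0.20, adjusted p = 0.00019) and *Tnfrsf1b* (−1.01 ± 0.13, adjusted p = 0.00052). *Cd28* was 2.47-fold lower (−1.30 ± 0.18, adjusted p = 0.001) and *Cd2* 2.10-fold lower (−1.07 ± 0.13, adjusted p = 0.00049). These 8 were also the receptors whose CD8+ libraries lay entirely below the CD4+ libraries, a pattern seen for 10.2% of all genes. *Cd27* (−0.24 ± 0.23, adjusted p = 0.59) and *Cd226* (0.41 ± 0.20, adjusted p = 0.24) did not pass. Without WT CD4+ replicate 1 and WT CD8+ replicate 1 the same 8 passed and *Cd226* passed as higher in CD8+ TILs (0.68 ± 0.19, edgeR adjusted p = 0.019), where 28% of all genes were called.

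The same comparison in *Sirt2*-/- mice, which shares no library with that in WT mice, called 4 receptors lower in CD8+ TILs, against 1.32% of 15787 genes (2.24% in either direction). They were *Tnfrsf4* (15.1-fold, log2 fold change −3.92 ± 0.31, edgeR adjusted p = 0.0014), *Icos* (−2.52 ± 0.36, adjusted p = 0.011), *Tnfrsf18* (−1.95 ± 0.24, adjusted p = 0.0064) and *Cd2* (−1.45 ± 0.27, adjusted p = 0.034), each also called in WT mice. *Tnfrsf9* (−1.73 ± 0.38, adjusted p = 0.06), *Cd28* (−1.28 ± 0.49, adjusted p = 0.32), *Cd27* (−0.89 ± 0.35, adjusted p = 0.35), *Tnfrsf1b* (−0.47 ± 0.37, adjusted p = 0.82), *Tnfrsf25* (−1.64 ± 1.52, adjusted p = 0.9) and *Cd226* (0.61 ± 0.20, adjusted p = 0.21) did not pass. The CD8+ libraries lay entirely below the CD4+ libraries for 5 receptors (these 4 and *Tnfrsf9*), against 6.37% of all genes, and entirely above them for *Cd226*, against 15.4%.

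The count of 4 moved with the libraries used. Without *Sirt2*-/- CD4+ replicate 4 all 10 receptors passed, 9 lower and *Cd226* higher in CD8+ TILs, and 25.4% of all genes did. *Cd28* was then 3.09-fold lower (−1.63 ± 0.14, edgeR adjusted p = 4.5e-05), and *Tnfrsf1b* changed from −0.47 to −0.77 ± 0.15 (adjusted p = 0.0038). *Cd27*, high in that library, moved the other way, to −0.39 ± 0.12 (adjusted p = 0.033). *Cd226* was 1.61-fold higher (0.69 ± 0.17, adjusted p = 0.012). Leaving out any of the other 7 libraries gave 2 to 5 receptors: 5 without CD4+ replicate 1, 3 without CD4+ replicate 2 or 3 or CD8+ replicate 4, and 2 without CD8+ replicate 1, 2 or 3. *Tnfrsf4* and *Tnfrsf18* passed in all 8 of these fits, *Icos* in 5 of 8 and *Cd2* in 2 of 8.

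Loss of SIRT2 was then examined within each cell type. In CD8+ TILs no receptor passed the adjusted threshold in edgeR or DESeq2, where edgeR called 1 of 15302 genes (0.00654%), *Sirt2* itself. At an unadjusted p below 0.05, 4 of the 10 were higher in *Sirt2*-/- CD8+ TILs, against 2.18% of all genes higher and 3.78% in either direction. *Tnfrsf4* was at 17.7 ± 3.99 against 9.29 ± 2.04 CPM (mean ± SD, n = 4), a log2 fold change of 0.91 ± 0.24 (± SE). The edgeR fit gave adjusted p = 0.99 for it. *Tnfrsf9* (0.66 ± 0.22), *Icos* (0.43 ± 0.14) and *Tnfrsf18* (0.35 ± 0.13) followed, each with an edgeR adjusted p of 0.99. The genotypes overlapped for all 10 receptors, whereas 2.88% of all genes did not overlap, and *Sirt2*-/- replicate 1 was the lowest library of its group for each of these 4. Without WT replicate 1 the difference was larger for *Tnfrsf4*, at 1.11 ± 0.20 (edgeR adjusted p = 0.18). It was smaller for *Tnfrsf9* (0.57 ± 0.24), *Icos* (0.40 ± 0.14) and *Tnfrsf18* (0.32 ± 0.13). These 4 kept an unadjusted p below 0.05 there, against 4.18% of all genes. Without *Sirt2*-/- replicate 2 the receptors below 0.05 numbered 3, against 2.58% of all genes, and *Tnfrsf18* (0.28 ± 0.13) was not among them. Without *Sirt2*-/- replicate 4 they numbered 3, against 2.65%. Leaving out any other CD8+ library gave 4, against 3.01% to 4.97% of all genes. *Cd28* (−0.20 ± 0.14), *Cd27* (−0.10 ± 0.14), *Tnfrsf1b* (−0.01 ± 0.10), *Tnfrsf25* (0.06 ± 0.51), *Cd226* (0.02 ± 0.13) and *Cd2* (−0.04 ± 0.09) did not reach an unadjusted p below 0.05.

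Markers of other cells also differed between these CD8+ groups. The summed level of 14 myeloid genes was 15.7 to 53.4 CPM in *Sirt2*-/- CD8+ libraries (14 of 14 with a count) and 10.2 to 15.6 CPM in WT libraries (12 of 14, *S100a8* and *S100a9* at 0). The 3 genes of CD4+ T cells (*Cd4*, *Cd40lg* and *Zbtb7b*) summed to 6.11 to 12.3 CPM and 0.742 to 10.6 CPM, and 12 Treg genes to 324 to 448 CPM and 305 to 409 CPM. Of 6 stromal genes, all had a count in both groups, and they summed to 41.2 to 105 CPM and 34.2 to 49.3 CPM. The 8 melanoma genes, all with a count, summed to 9.76 to 28.7 CPM and 6.89 to 13.4 CPM. Among those that could be tested, 9 of 9 myeloid (list median 2.36, 4 at an unadjusted p below 0.05), 3 of 3 stromal (2.08, 2) and 4 of 4 melanoma genes (0.50, 1) had positive log2 fold changes, and none passed by edgeR after adjustment. The Treg list had 11 of 12 positive values (median 0.35, 1 at an unadjusted p below 0.05). The CD4+ T cell genes had 2 of 3 (0.15), and natural killer (NK) cell genes 1 of 4 (−0.17). For all genes the median was 0.01. The 9 naive and memory genes, all with a count, summed to 1594 to 3386 CPM in *Sirt2*-/- and 1801 to 2225 CPM in WT libraries, the highest being *Sirt2*-/- replicate 1. In CD4+ TILs the 14 myeloid genes summed to 21.9 to 149 CPM in *Sirt2*-/- libraries, the highest being replicate 4, and to 16.3 to 19.2 CPM in WT libraries. There 9 of 9 myeloid (list median 1.33), 3 of 3 stromal (1.30) and 1 of 6 melanoma genes (−1.19) had positive log2 fold changes. Of 12 Treg genes 4 did (−0.25), and of 3 NK cell genes 2 did (1.04). The part of these markers in the receptor values was not tested.

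In CD4+ TILs the fit called none of 15070 genes (0%), and none of the 10 receptors reached an unadjusted p below 0.05, against 1.26% of all genes. DESeq2 called 7 genes and no receptor. The median gene lay at −0.11 on the log2 scale, and 3.15% of all genes had genotypes that did not overlap, against none of the receptors. *Cd27* (0.61 ± 0.38), *Tnfrsf9* (0.57 ± 0.33) and *Cd2* (0.40 ± 0.27) had the largest positive values and *Tnfrsf25* (−0.68 ± 1.30) and *Tnfrsf1b* (−0.48 ± 0.35) the largest negative values, each with an edgeR adjusted p of 1 and with overlapping genotypes. *Tnfrsf4* (0.01 ± 0.26), *Tnfrsf18* (0.02 ± 0.22), *Icos* (−0.08 ± 0.33), *Cd226* (−0.12 ± 0.26) and *Cd28* (−0.15 ± 0.48) lay nearer 0. Without *Sirt2*-/- replicate 4 and WT replicate 1, *Cd27* came to 0.18 ± 0.22, *Tnfrsf25* to 0.10 ± 0.24 and *Cd2* to 0.08 ± 0.17, and *Tnfrsf9* had the largest value of the 10 at 0.37 ± 0.38 (edgeR adjusted p = 0.99). Without *Sirt2*-/- replicate 1, *Tnfrsf9* (0.83 ± 0.22) and *Cd2* (0.58 ± 0.24) reached an unadjusted p below 0.05, against 1.88% of all genes, each with an edgeR adjusted p of 1.

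Whether the genotype effect differed between the cell types was tested over all 16 libraries. No gene of 17270 passed (0%), and 1 receptor had an unadjusted p below 0.05, against 1.98% of all genes. For *Tnfrsf4* the effect in CD8+ TILs exceeded that in CD4+ TILs by 0.91 ± 0.36 on the log2 scale (edgeR adjusted p = 1), whereas the median gene lay at 0.14. Without the 3 libraries with few genes it was 1.001 ± 0.37 (edgeR adjusted p = 1), with the median gene at 0.03, and *Tnfrsf4* was again the 1 receptor with an unadjusted p below 0.05, against 3.69% of all genes. Without *Sirt2*-/- CD4+ replicate 1, *Cd2* was a second (−0.63 ± 0.26, edgeR adjusted p = 1).

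**Figure D2:**
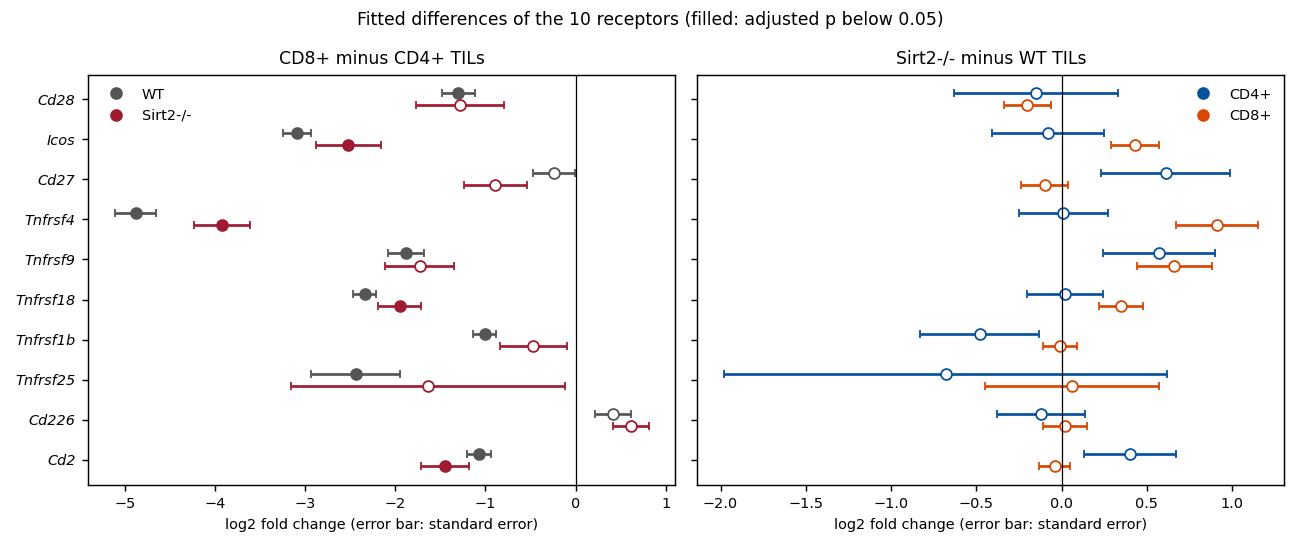
Log2 fold changes with their standard errors from edgeR, for CD8+ minus CD4+ TILs (left, WT and *Sirt2*-/- mice) and for *Sirt2*-/- minus WT TILs (right, CD4+ and CD8+), with filled points at an adjusted p below 0.05. The left panel has 8 filled points for WT and 4 for *Sirt2*-/- mice, and the right panel has none.

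*Tnfrsf4*, *Tnfrsf18*, *Icos* and *Tnfrsf9* were set beside *Foxp3*, the defining transcription factor of Treg cells. *Tnfrsf25*, with a WT lineage difference of −2.44 against −2.34 for *Tnfrsf18* and −1.88 for *Tnfrsf9*, was not among them. *Foxp3* measured 898, 675, 602 and 360.5 CPM in WT CD4+ and 311, 502, 674 and 393 CPM in *Sirt2*-/- CD4+ libraries. In CD8+ libraries it was at 0.913, 2.89, 2.46 and 4.41 CPM (WT) and 2.58, 3.95, 3.25 and 6.77 CPM (*Sirt2*-/-). All 12 Treg marker genes (*Foxp3*, *Il2ra*, *Ikzf2*, *Ctla4* and others, members excluded) were tested, and 11 were lower in WT CD8+ than in WT CD4+ TILs, with a list median of −3.12 against −0.02 for all genes. The list summed to 2030 to 3210 CPM in WT CD4+ and 1530 to 3030 CPM in *Sirt2*-/- CD4+ libraries, and the lowest of these 8 libraries, *Sirt2*-/- replicate 1, was also the lowest for *Tnfrsf4*, *Tnfrsf18* and *Tnfrsf9*. *Icos* was lowest in *Sirt2*-/- replicate 4, whose Treg sum was 3031 CPM, and WT replicate 1, with the highest Treg sum and *Foxp3*, had the lowest *Tnfrsf9* of the WT CD4+ libraries. *Sirt2*-/- replicate 1 also stood apart for the 9 naive and memory genes, which summed to 6156 CPM there and to 2079 to 3521 CPM in the other 7 CD4+ libraries. The part of Treg or naive cells in the receptor levels was not tested.

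**Figure D3:**
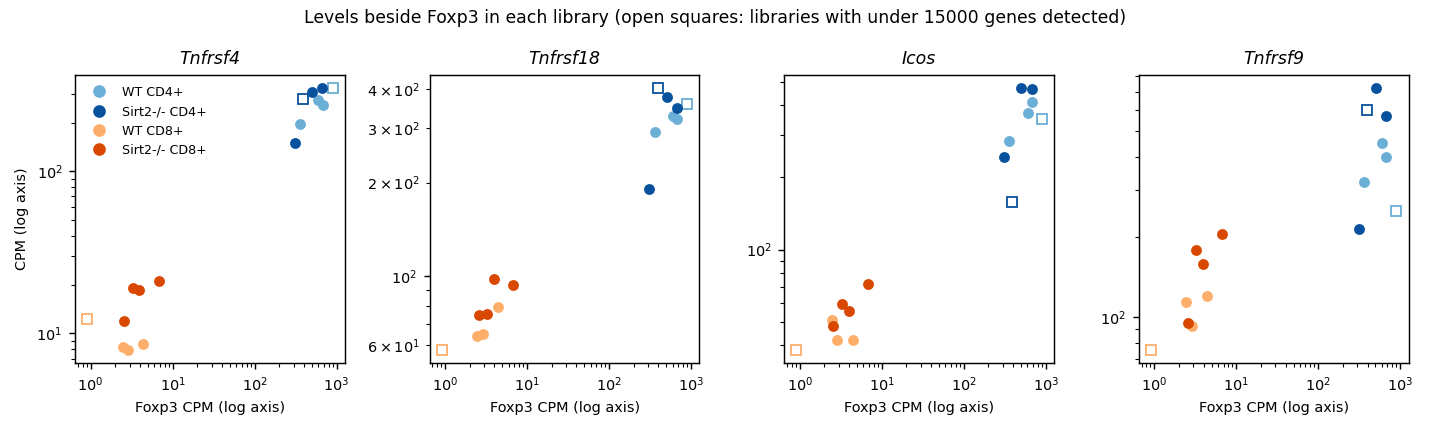
CPM of *Tnfrsf4*, *Tnfrsf18*, *Icos* and *Tnfrsf9* against CPM of *Foxp3* in the 16 libraries (both axes logarithmic), colored by group, with open squares for the libraries with under 15000 genes detected. CD4+ libraries, with *Foxp3* from 311 to 898 CPM, form a cluster apart from CD8+ libraries, with *Foxp3* from 0.913 to 6.77 CPM.

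Within groups, receptors varied together in a way that depended on the 3 libraries with few genes. Over the other 13 libraries, deviations of log2 CPM from the group mean correlated at a Pearson's r of 0.96 for *Tnfrsf4* and *Tnfrsf9*, 0.92 for *Icos* and *Tnfrsf4*, 0.91 for *Icos* and *Tnfrsf9*, 0.86 for *Tnfrsf9* and *Tnfrsf18* and 0.84 for *Tnfrsf4* and *Tnfrsf18*. Among these 13, *Sirt2*-/- replicate 1 was the lowest of its group for each of these receptors in both cell types. The part of replicate 1 in these correlations was not tested. *Tnfrsf1b* and *Cd226* correlated at 0.87, and *Icos* and *Tnfrsf18* at 0.77. With *Icos*, *Tnfrsf4*, *Tnfrsf9* and *Tnfrsf18*, *Cd2* correlated at 0.69 to 0.81, *Tnfrsf1b* at 0.43 to 0.60 and *Cd226* at 0.31 to 0.69. *Cd28* and *Cd27* lay at −0.14 to 0.31 with them, and *Tnfrsf25* at −0.58 to −0.06. With all 16 libraries *Cd28* and *Tnfrsf1b* correlated at 0.88, and they share the low value of *Sirt2*-/- CD4+ replicate 4. These values are descriptions, since the genes share each library's depth and cell composition.

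**Figure D4:**
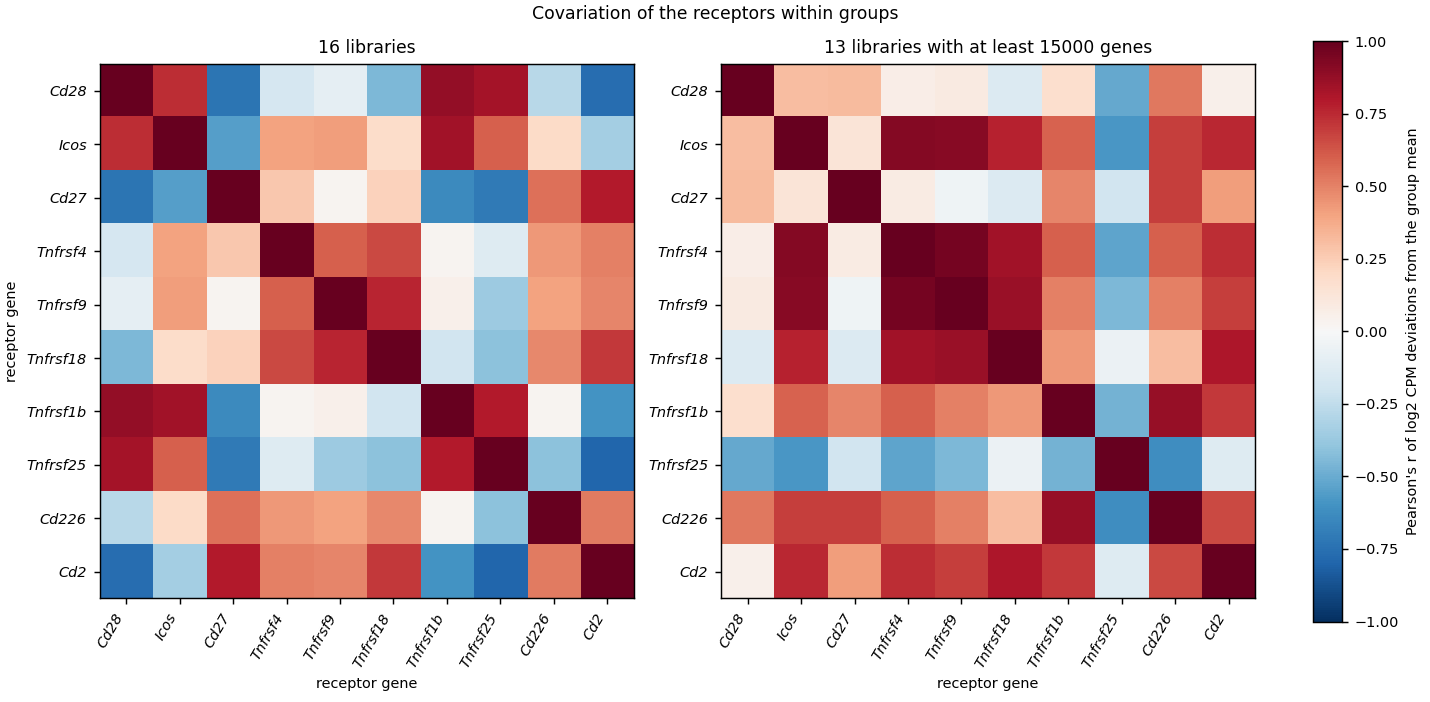
Pearson's r between receptors of log2 CPM deviations from the group mean, over 16 libraries (left) and over the 13 libraries with at least 15000 genes (right), with red for positive and blue for negative values. *Icos*, *Tnfrsf4*, *Tnfrsf9* and *Tnfrsf18* form a block of positive values on the right. There *Cd2*, *Tnfrsf1b* and *Cd226* are also positive with each of these.

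Across all 16 libraries the genes whose log2 CPM was most like that of *Tnfrsf4*, among genes with a mean of at least 10 CPM, were *Izumo1r* (r = 0.988), *Ctla4* (0.986) and *Tnfrsf18* (0.984). For *Tnfrsf18* they were *Ctla4* (0.987), *Tnfrsf4* (0.984) and *Foxp3* (0.981), for *Icos* *Tiam1*, *Trib1* and *Dgat1* (0.977 to 0.978), and for *Tnfrsf9* *Hif1a*, *Odc1* and *Crem* (0.964 to 0.971). *Cd28* was most like *Exoc6b*, *Ahcyl2* and *Rgs2*, and *Tnfrsf1b* most like *Bmpr2*, *Reep3* and *Cxcr3*. *Cd27* (*Mettl23*, *Acox3* and *Paip2*), *Cd226* (*Dscam*, *Hist1h2bb* and *Top2a*) and *Cd2* (*Slc4a7*, *Bmp2k* and *Fyb*) had their closest genes at 0.911 to 0.975. These r values are of levels, not of deviations from group means, so they include the difference between CD4+ and CD8+ TILs. Over 13 libraries each of the 10 lists of closest genes kept at most 1 gene of its list over 16 libraries. The genes kept were *Ctla4* for *Tnfrsf4* and *Tnfrsf18*, *Tiam1* for *Icos*, *Crem* for *Tnfrsf9* and *Dscam* for *Cd226*. The other lists kept none.

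The partners of these receptors were read from lists of ligands, signal mediators and related receptors. The counts below are read against 11.9% of all genes called between CD8+ and CD4+ TILs in WT mice and 2.24% in *Sirt2*-/- mice. Of 13 ligand genes, 9 were tested in WT mice and 10 in *Sirt2*-/- mice and none passed between CD8+ and CD4+ TILs, and *Tnfsf18*, the GITR ligand, had no count in any library. Of 31 signal mediators, 7 were lower and 3 higher in WT CD8+ TILs (list median −0.09). *Malt1*, a protease on the path to NF-κB (117 against 215 CPM, log2 fold change −0.94 ± 0.14, edgeR adjusted p = 0.0019), *Map3k14*, the kinase NIK of noncanonical NF-κB signaling (−1.02 ± 0.20, adjusted p = 0.0063), the adaptor *Traf6* (−0.88 ± 0.18, adjusted p = 0.01) and *Birc3*, the ubiquitin ligase cIAP2 (−0.79 ± 0.19, adjusted p = 0.021), were lower. *Prkcq*, the kinase PKCθ downstream of TCR and CD28, was higher (0.55 ± 0.10, adjusted p = 0.0058). In *Sirt2*-/- mice *Birc3* was again lower (−0.80 ± 0.15, adjusted p = 0.031) and *Pik3cd*, a PI3K catalytic subunit, was higher (0.83 ± 0.17, adjusted p = 0.044).

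Inhibitory receptors were divided between the lineages. Of 10, 3 were lower in WT CD8+ TILs, namely *Ctla4*, which shares the B7 ligands with CD28 (10.7 against 267 CPM, −4.69 ± 0.25, edgeR adjusted p = 2.0e-06), *Tigit* (−1.55 ± 0.20, adjusted p = 0.00052) and *Pdcd1*, encoding PD-1 (−1.03 ± 0.14, adjusted p = 0.00071). The 3 that were higher were *Cd244a*, a CD48 receptor as CD2 is (53.0 against 1.96 CPM, 4.71 ± 0.57, adjusted p = 0.00042), *Cd96* (1.18 ± 0.24, adjusted p = 0.0093) and *Havcr2*, encoding TIM-3 (0.90 ± 0.19, adjusted p = 0.0094), the last named after its value was seen. *Ctla4* (−4.56 ± 0.50, adjusted p = 0.004) and *Tigit* (−1.35 ± 0.28, adjusted p = 0.046) were lower in *Sirt2*-/- CD8+ TILs too.

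Of 15 other costimulatory receptors and coreceptors, 9 were lower and 2 higher in WT CD8+ TILs (list median −1.04). *Cd40lg*, the helper signal to B cells and dendritic cells (0.398 against 44.7 CPM, −6.89 ± 0.70, edgeR adjusted p = 0.00014), the scavenger receptor family members *Cd5* (−1.77 ± 0.15, adjusted p = 4.6e-05) and *Cd6* (−1.04 ± 0.11, adjusted p = 0.00018) and *Slamf1* (−1.97 ± 0.23, adjusted p = 0.0004) were lower. *Cd7* (1.81 ± 0.22, adjusted p = 0.00044) was higher, as was *Crtam*, named after its value was seen (4.17 ± 0.87, adjusted p = 0.0099). In *Sirt2*-/- mice *Cd5* (−1.39 ± 0.16, adjusted p = 0.0041) and *Slamf6* (−1.52 ± 0.26, adjusted p = 0.024) passed, both lower.

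Among 9 naive and memory genes 4 were lower in WT CD8+ TILs, *Il7r* (−1.54 ± 0.22, edgeR adjusted p = 0.0011), *S1pr1* (−0.75 ± 0.16, adjusted p = 0.011), *Lef1* (−0.62 ± 0.14, adjusted p = 0.014) and *Tcf7* (−0.55 ± 0.13, adjusted p = 0.021). In *Sirt2*-/- mice none passed with all libraries, and *Il7r*, *S1pr1* and *Tcf7* passed as lower without *Sirt2*-/- CD4+ replicate 4. Of the Treg list, 5 genes were lower in *Sirt2*-/- CD8+ TILs, with *Foxp3* at −6.83 ± 0.43 (adjusted p = 0.00063) and *Il2ra* at −2.86 ± 0.35 (adjusted p = 0.0067). These counts rose without the libraries with few genes, where 28% of all genes were called in WT and 25.4% in *Sirt2*-/- mice. In *Sirt2*-/- mice, without CD4+ replicate 4, the genes called went from 2 to 14 for mediators, from 2 to 9 for inhibitory receptors, from 2 to 12 for other costimulatory genes, from 5 to 10 for Treg genes and from 0 to 2 for ligands (*Tnf* and *Tnfsf4*, named after their values were seen, both higher in CD8+ TILs). In WT mice, without replicate 1 of both cell types, they went from 10 to 14, from 6 to 9, from 11 to 14, from 11 to 12 and from 0 to 1 (*Tnf*), and from 4 to 5 for naive and memory genes. The difference between genotypes in these counts was not tested.

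No gene of these 6 lists passed in *Sirt2*-/- against WT TILs of either cell type by edgeR, with or without the libraries with few genes. Unadjusted edgeR p was below 0.05 in CD8+ TILs for 0 of 9 ligands tested, 3 of 31 mediators and 3 of 10 inhibitory receptors. Below 0.05 there were also 2 of 15 other costimulatory genes, 1 of 12 Treg genes and 0 of 9 naive and memory genes. The share of all genes was 3.78%. In CD4+ TILs there were 0 of 10 ligands, 1 of 31 mediators, 1 of 10 inhibitory receptors and 1 of 15 other costimulatory genes. Treg genes there numbered 0 of 12 and naive and memory genes 3 of 9, against 1.26% of all genes.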

How the data were processed

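The authors isolated RNA from CD4+ and CD8+ TILs, made strand-specific, rRNA-depleted libraries from 1 ng of RNA per sample and deposited their raw read counts for each gene as whole numbers in a single table, not normalized. The submitters' processing notes name STAR, HTSeq and mm10, and all 55450 gene identifiers matched GENCODE mouse release M21 (GRCm38). Versions and the strand setting are not given in the sources used here. Groups were taken from the labels. The study's methods give an n of 4 per group of mice, without saying whether a library is 1 animal or a pool, so p-values measure the spread between these libraries.

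Tests used edgeR 4.0.16 (limma 3.58.1) in R 4.3.3: filterByExpr by group, TMM normalization, and robust two-sided quasi-likelihood tests over all genes passing the filter, called at a Benjamini–Hochberg adjusted p under 0.05. Each pair of groups was fitted alone, and the difference between genotype effects with all 16 libraries. A prior count of 2 was added for log2 CPM, and lengths are merged GENCODE exons. The standard error is the log2 fold change divided by the square root of the F statistic. Promoter windows came from RefSeq (GRCm38.p6). PCR copies could not be recognised by molecular identifiers, so floors of 3 counts cover counting error only.

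The receptors and gene lists were chosen with earlier results of these data known. Genes named were all 10 receptors, *Sirt2*, *Foxp3*, *Il2ra*, for each receptor the 3 genes most correlated over 16 libraries (those of *Tnfrsf25* are not reported here), and of each list at most the 5 called genes with the smallest p in a comparison. Alternatives were DESeq2 1.42.0, its size factors in edgeR, no filter on low counts, the replicate number as a block, CPM without TMM, leaving out the 3 libraries with under 15000 genes, and leaving out each library in turn. The code was tested on simulated data.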

Additional observations from a re-analysis of the deposited data

Results flagged for a closer look

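Of 40 sets of 4 libraries (10 receptors in 4 groups), 6 held a library far from the other 3 by Dixon's ratio, where chance gives about 2. *Sirt2*-/- CD4+ replicate 4, with few genes detected, had the lowest *Cd28* of its group (37.7 CPM, others 217 to 233) and the highest *Cd27* (243 CPM, others 76.7 to 96.8). WT CD4+ replicate 4 was low for *Cd27* (47.3 CPM, others 89.9 to 97.4). WT CD8+ replicate 1, also with few genes, was high for *Tnfrsf4* (12.3 CPM, others 7.97 to 8.57) and low for *Cd226* (94.3 CPM, others 126 to 131). *Cd28* in WT CD8+ replicate 4 stood apart only because the other 3 libraries were nearly equal (79.4 CPM, others 84.8 to 85.6).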

How the results depend on the processing

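In WT mice the same 8 receptors were called between CD8+ and CD4+ TILs under every alternative, and no receptor was called between genotypes under any. In *Sirt2*-/- mice the count of 4 between cell types became 10 without the libraries with few genes, and lay between 2 and 10 with any 1 library omitted. DESeq2 called 5 there. CPM without TMM moved none of the 40 group means by more than 1 SD. Signs changed only for values that were not called. In *Sirt2*-/- against WT CD4+ TILs, the log2 fold change was −0.018 for *Tnfrsf4* and −0.002 for *Tnfrsf18* under DESeq2 and under its size factors, and −0.02 and −0.029 with the replicate block. Without the libraries with few genes it was 0.031 for *Cd28*, 0.151 for *Icos*, −0.036 for *Tnfrsf18* and 0.099 for *Tnfrsf25* in CD4+ TILs, and 0.044 for *Cd27*, −0.056 for *Cd226* and 0.025 for *Cd2* in CD8+ TILs. Leaving out 1 library gave, in CD4+ TILs, −0.31 to 0.186 for *Cd28*, −0.294 to 0.158 for *Icos*, −0.108 to 0.207 for *Tnfrsf4*, −0.083 to 0.207 for *Tnfrsf18* and −0.277 to 0.004 for *Cd226*. In CD8+ TILs it gave −0.166 to 0.044 for *Cd27*, −0.085 to 0.034 for *Tnfrsf1b*, −0.223 to 0.568 for *Tnfrsf25*, −0.07 to 0.108 for *Cd226* and −0.07 to 0.025 for *Cd2*. The difference between genotype effects ran from −0.37 to 0.126 for *Cd28* (0.137 with the replicate block) and from −0.175 to 0.276 for *Tnfrsf9*. The cause of these changes was not tested. The labels do not say what libraries of the same number share, and the numbers were not taken as pairs, since no comparison had every pair above 0.1: residuals correlated at −0.07 to 0.08 between genotypes, at 0.07 to 0.12 between cell types in WT mice (each closest to its own number) and at −0.01 to 0.13 in *Sirt2*-/- mice. With the number as a block, 3 receptors (*Tnfrsf4*, *Tnfrsf9* and *Tnfrsf18*) were called between cell types in *Sirt2*-/- mice and 8 in WT mice. In *Sirt2*-/- mice the block thus gained *Tnfrsf9* (edgeR adjusted p = 0.036) and lost *Icos* (adjusted p = 0.068) and *Cd2* (adjusted p = 0.1).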
